A study of Ovis aries with 36 samples.

Results

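The 69 genes described here had lower RNA levels in the infraspinatus of sheep of the N6W arm at the end of the experiment than before surgery, in the operated muscle and in the muscle of the other shoulder alike. They were chosen by these measured values. On the scale log2(value + 1), the mean of END-CC minus PRE and the mean of END minus PRE in N6W were both at most -0.7. The mean of TR minus PRE over the 9 animals lay between -0.5 and 0.5, and the END-CC mean of the 6 animals given nandrolone lay within 0.5 of the CONTROL mean. Only genes above 1 in all 36 libraries with a median of 10 to 10000 were considered, and the first 37 identifiers were left out. Of the 25197 genes in the files, 12395 passed these level bounds and 69 of those met the whole rule. Because the rule used them, the N6W changes from PRE are given as a description without a test.

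Total RNA was sequenced from muscle of 2-year-old female Swiss Alpine sheep, with 4 libraries from each of 9 animals. The infraspinatus tendon was cut from the bone in every animal, left free for 16 weeks and then reattached, and the experiment ended 6 weeks after reattachment. PRE is the sample before release, TR the sample taken at repair, END the operated muscle at the end and END-CC the unoperated muscle of the other side at that time. CONTROL animals (2901, 2902 and 2903) had surgery without nandrolone, N22W animals (2913, 2914 and 2915) were given 150 mg nandrolone decanoate weekly from release on, and N6W animals (2907, 2908 and 2909) were given the same weekly dose from repair on. All 3 arms therefore share release and repair, and the N6W animals had no drug at PRE or TR. The design text gives 6 animals per arm, 18 in all, of which 3 per arm were analysed here. END-CC is no untreated sample in N22W and N6W, since an injected drug reaches both shoulders, and no arm without surgery was analysed here.

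The infraspinatus is a muscle of the rotator cuff, which holds the head of the humerus in the shoulder socket and turns the arm outwards. A muscle whose tendon has been cut loses its load, shortens, loses fibre mass and gathers fat and connective tissue. Nandrolone decanoate is an anabolic androgenic steroid that acts through the androgen receptor and is known for raising muscle protein mass. The other shoulder of the same animal shares the animal's age, season, anaesthesia and drug with the operated side but not the cut tendon.

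The files identify genes by Ensembl number alone. No name was found for them (0 of 25197 numbers matched among 35057 entries of the name table), so the genes are given by number and their roles and sequences are not used here. The muscle identity of the samples could not be checked against marker genes for the same reason. Values are reads divided by 1 size factor per library, called normalized reads below. They are not divided by gene length, so levels are compared between samples of a gene and not between genes. Recovered reads summed to 11879715 to 43066338 per library, and no pair of libraries within a group agreed within sampling noise.

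A feature of the files bears on every comparison with PRE outside N6W. The 12 libraries of CONTROL and N22W taken at PRE or TR had size factors with a geometric mean of 1.001 and the other 24 libraries a geometric mean of 1.0. This is read here as each set having been scaled by itself, which is inferred from the values. Whether the sets were also counted apart is not known. The median END minus PRE over the 12395 genes was -0.53 in CONTROL, -0.53 in N22W and -0.01 in N6W. When the end of the experiment is set against PRE in these 2 arms, the set of libraries and the time point cannot be told apart, and these changes were not tested. Values relative to the median of the 12395 genes in the same animal are given beside them. None of the 69 genes (0) was among the 499 genes that differed more than 8-fold between the sets. All 499 were higher in the 12 libraries of CONTROL and N22W at PRE or TR, and 0 were higher in the other 24. Values relative to the median of the 12395 genes do not remove such differences of single genes between the sets.

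In N6W, END-CC minus PRE had a median of -1.14 over the 69 genes, with a range from -2.01 to -0.70. END minus PRE had a median of -0.90, with a range from -1.90 to -0.70. By animal, the median END-CC minus PRE was -1.33 in 2907, -0.998 in 2908 and -0.97 in 2909, and the median END minus PRE was -1.08, -1.02 and -0.52. Animal 2909 thus had the smallest difference at END and differed little from 2908 at END-CC. All 3 animals were below PRE for 65 genes at END-CC (23.9% of the 12395 genes) and for 62 genes at END (19.6%). All 3 END-CC values lay below all 3 PRE values for 58 genes, against 12.9% of the 12395 genes, and all 3 END values did so for 45 genes, against 10.1%. These counts follow from the choice of the genes and nothing is read from them. In bulk muscle, fewer cells of a type and less RNA per cell cannot be told apart.

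**Figure D1:**
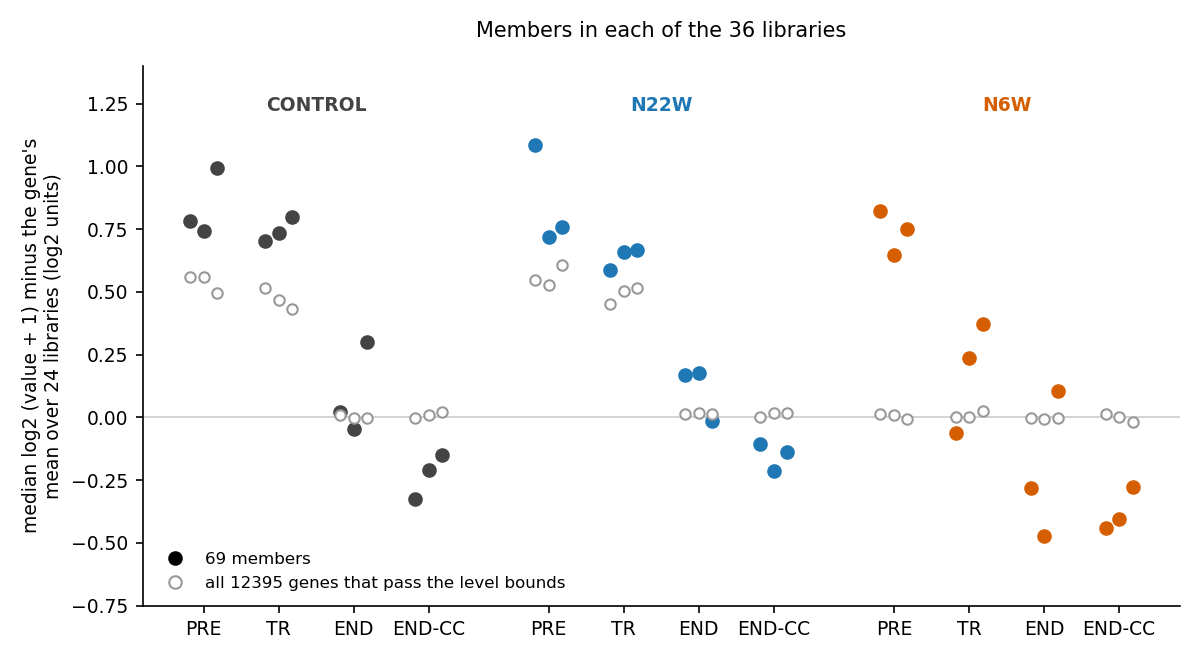
Median over the 69 genes (filled points) and over all 12395 genes that pass the level bounds (open points) in each of the 36 libraries, grouped by arm and time point. The vertical axis is log2(value + 1) minus the mean of the gene over the 24 libraries scaled together. In N6W the filled points run from 0.65 to 0.82 at PRE and from -0.44 to -0.28 at END-CC while the open points stay near 0, and in CONTROL and N22W the open points themselves stand near 0.5 at PRE and TR.

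The medians per library show the course of the set in each arm. Relative to the median of the 12395 genes in the same library, the 69 genes stood at 0.73 ± 0.09 (SD, n = 3) in N6W at PRE, 0.17 ± 0.21 at TR, -0.21 ± 0.29 at END and -0.37 ± 0.10 at END-CC. The N6W libraries were highest at PRE without overlap with any other time point. In CONTROL the same quantity was 0.30 ± 0.17 at PRE, 0.27 ± 0.09 at TR, 0.09 ± 0.19 at END and -0.24 ± 0.08 at END-CC. In N22W it was 0.29 ± 0.21 at PRE, 0.15 ± 0.01 at TR, 0.10 ± 0.11 at END and -0.17 ± 0.06 at END-CC. The N6W PRE libraries, which ran from 0.64 to 0.81, stood above all PRE libraries of CONTROL, which ran from 0.18 to 0.50, and of N22W, which ran from 0.16 to 0.54. All 3 N6W PRE libraries enter the rule directly, and PRE of CONTROL and N22W was scaled in the other set, so this difference in PRE level is described and not tested.

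The bound on release is set on the mean of 9 animals, and that mean had a median of -0.31 over the 69 genes, from -0.48 to 0.23. By arm the median TR minus PRE was -0.06 in CONTROL, -0.26 in N22W and -0.51 in N6W. A change of -0.7 or less was reached by 2 genes in CONTROL (3.9% of the 12395 genes), by 5 in N22W (5.76%) and by 19 in N6W (2.82%). In N6W, 41 genes were lower at TR in all 3 animals (21.5% of the 12395 genes). The bound applies to the mean of all animals and not to each arm, and N6W taken alone had lower values at TR than at PRE for most of the genes. The N6W changes share the PRE libraries that chose the genes, and the bound on the 9-animal mean limits how far the other arms could move with N6W, so the order of the arms is not a test.

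Single animals stood out at TR. The median TR minus PRE was -0.82 in N6W animal 2907, -0.44 in 2908 and -0.32 in 2909. In N22W it was -0.54 in animal 2913 and -0.07 and -0.09 in 2914 and 2915, and in CONTROL it was -0.06, -0.10 and -0.19. The low N22W median therefore came mostly from animal 2913, whose PRE library had the highest median of the 69 genes among the 12 libraries scaled with it, at 1.08. From TR on, the N6W levels were lower again, with a median END minus TR of -0.39 and a median END-CC minus TR of -0.56. A difference of -0.7 or less was reached by 14 genes for END against TR (2.02% of the 12395 genes) and by 28 for END-CC against TR (11.1%). The rule chose low END and END-CC values in N6W and bounded the mean of TR minus PRE over all animals. Values below TR at END and END-CC therefore follow in part from the choice of the genes. Nothing is read from these medians and counts.

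The 10 genes with the lowest mean of both N6W changes set the range of the group. ENSOARG00000013025 stood at 584, 411 and 459 normalized reads at PRE in N6W animals 2907, 2908 and 2909, at 136, 135 and 176 at TR, at 81.7, 131 and 195 at END, and at 119, 147 and 111 at END-CC. The lowest PRE value was over the highest value of any later N6W sample, so this gene was already low at TR. It had 193 to 423 normalized reads at PRE and 221 to 420 at TR in CONTROL, and 257 to 304 and 269 to 345 in N22W. In those arms PRE and TR overlapped for this gene. The N6W changes were -1.69 at TR, -1.90 at END and -1.93 at END-CC.

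ENSOARG00000007542 had 46.8, 48.3 and 38.8 normalized reads at PRE in N6W, 15.5, 22.01 and 18.4 at TR, 10.94, 10.95 and 15.9 at END, and 5.34, 12.4 and 20.4 at END-CC. ENSOARG00000006121 had 70.1, 56.1 and 35.5 at PRE, 15.5, 26.4 and 24.6 at TR, 18.5, 15.1 and 20.5 at END, and 14.7, 6.19 and 19.0 at END-CC. ENSOARG00000004049 had 59.3, 30.0 and 29.1 at PRE, 16.7, 13.9 and 17.4 at TR, 15.2, 13.7 and 13.3 at END, and 12, 9.90 and 19.0 at END-CC. These 3 genes shared the course of ENSOARG00000013025, with every PRE value of N6W above every later one. Their N6W changes at TR were -1.22, -1.23 and -1.18, and their CONTROL changes at TR were 0.32, -0.06 and -0.22. All 3 had few reads, down to 4, 5 and 3 in the library with the fewest.

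In some of the 10, the ranges of the PRE and TR values overlapped in N6W, and levels were lower at the end. ENSOARG00000012972 had 477, 354 and 333 normalized reads at PRE in N6W, 321, 324 and 388 at TR, 248, 94.4 and 259 at END, and 236, 74.3 and 143 at END-CC. Animal 2908 was lowest at END and at END-CC, and PRE and TR overlapped. In CONTROL its level ran from 276 to 382 at PRE, from 423 to 558 at TR, from 219 to 286 at END and from 189 to 196 at END-CC. The TR values of CONTROL were all above the PRE values, the reverse of the N6W order of means, and the END-CC values were the lowest of the arm.

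ENSOARG00000015375 had 23.4, 9.13 and 11.3 normalized reads at PRE in N6W, 11.9, 9.54 and 16.9 at TR, 4.21, 4.11 and 7.95 at END, and 2.67, 1.24 and 5.84 at END-CC. It had a single read in the library with the fewest, so its change of -1.92 at END-CC rests on few reads. ENSOARG00000013410 had 30.6, 24.8 and 30.7 at PRE, 5.97, 23.5 and 36.8 at TR, 10.1, 9.58 and 24.5 at END, and 4.001, 8.67 and 13.1 at END-CC. Its TR values spread widely between the N6W animals, with 2907 lowest and 2909 highest. In CONTROL this gene stood at 15.3, 11.1 and 14.7 at PRE and at 34.8, 44.9 and 29.9 at TR in animals 2901, 2902 and 2903, a change of 1.35. The mean change in N6W was -0.67, although N6W animal 2909 was higher at TR than at PRE.

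Of the remaining 3, ENSOARG00000009970 had 64.7, 78.3 and 85.6 normalized reads at PRE in N6W, 34.6, 46.9 and 61.4 at TR, 20.2, 28.7 and 45.1 at END, and 20.01, 17.3 and 20.4 at END-CC. Its N6W means were lower at each later point, and END-CC was the tightest group. ENSOARG00000006730 had 152, 192 and 144 at PRE, 58.5, 109 and 133 at TR, 64.8, 60.2 and 141 at END, and 26.7, 68.1 and 77.3 at END-CC. ENSOARG00000007837 had 40.5, 43.1 and 48.5 at PRE, 27.5, 38.1 and 31.7 at TR, 22.7, 12.3 and 16.6 at END, and 22.7, 21.1 and 13.1 at END-CC. PRE was apart from every later time point in all 3 of these genes, with no overlap in N6W. ENSOARG00000006730 varied most between animals of these 10, and N22W animal 2913 had 322 at TR where 2914 had 63.9.

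**Figure D2:**
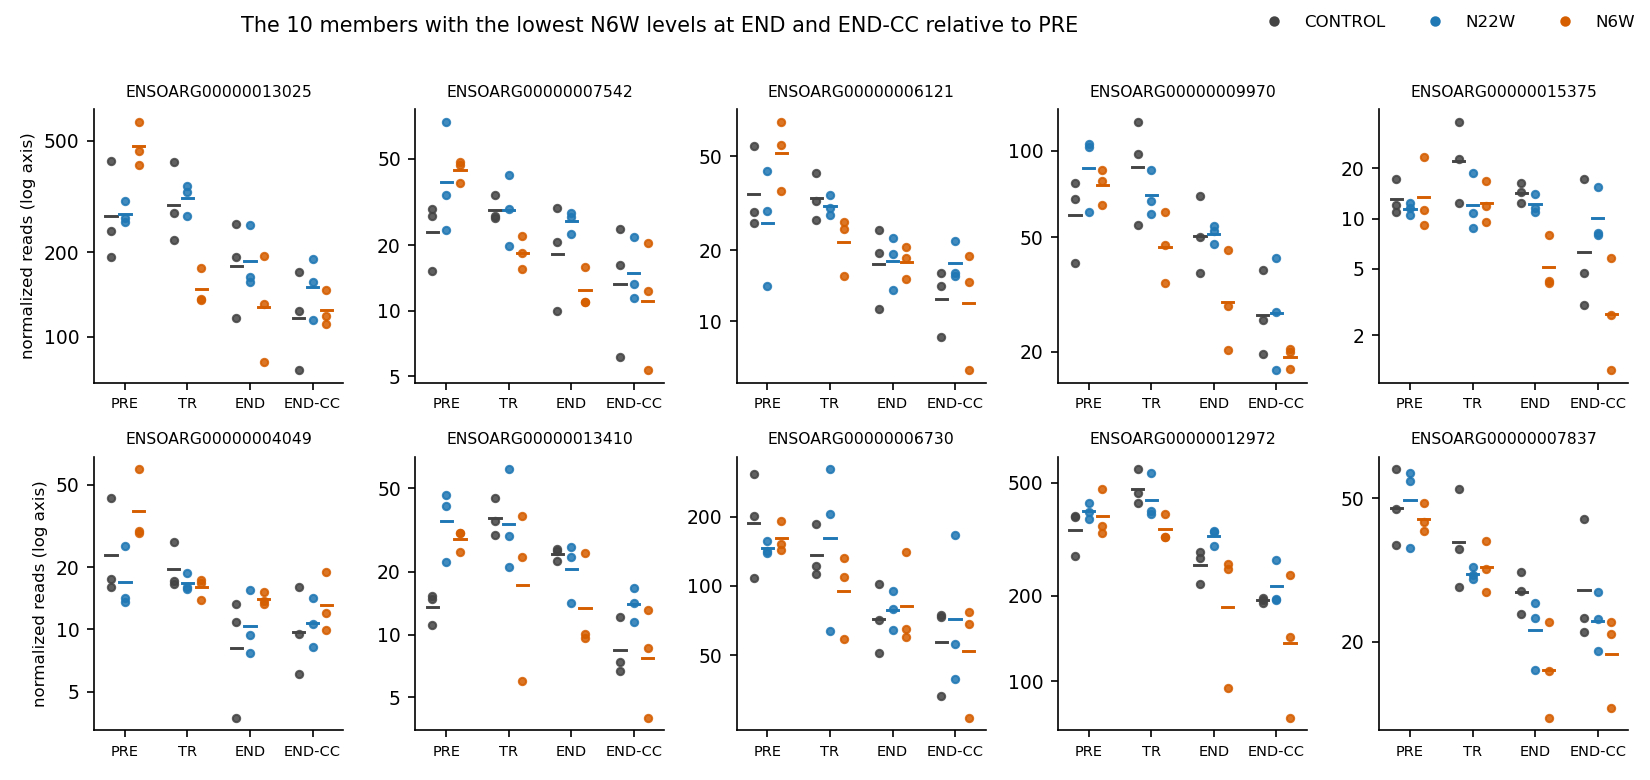
Normalized reads (log axis) of the 10 genes with the lowest mean of END minus PRE and END-CC minus PRE in N6W, by time point. Each point is 1 animal, each bar the geometric mean of 3 animals, and colours mark the arms; in ENSOARG00000013025 the N6W points run from 411 to 584 at PRE and from 111 to 147 at END-CC.

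The bounds of the rule cut through a continuous range. For END-CC minus PRE in N6W, ENSOARG00000005608 lay inside at -0.703, and ENSOARG00000001441 was outside by less than the rounding, at -0.70. For END minus PRE, ENSOARG00000020714 lay inside at -0.70 and ENSOARG00000015424 outside at -0.69. Near these 2 limits, 10 and 22 of the 69 genes lay within 0.1 of the limit on the inside, and 17 and 26 other genes within 0.1 on the outside. For TR minus PRE over 9 animals, ENSOARG00000005589 lay inside at -0.48 and ENSOARG00000013529 outside at -0.51, and at the upper limit ENSOARG00000015375 lay inside at 0.23 and ENSOARG00000009382 outside at 0.53. For END-CC of treated animals against CONTROL, ENSOARG00000013284 lay inside at -0.47 and ENSOARG00000008083 outside at -0.52, and at the upper limit ENSOARG00000001606 lay inside at 0.42 and ENSOARG00000014690 outside at 0.52. The median of that last difference over the 69 genes was -0.05.

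The number of genes that met the rule depended on the N6W animals. Without N6W animal 2909, 207 genes met the rule, of which 55 were among the 69. Without 2907 it was 76 genes with 40 of the 69, and without 2908 it was 95 with 37 of the 69. With the limit of -0.7 set to -1, 18 genes remained, and with -0.5, 236 met the rule.

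The genes covered a wide range of levels. Their medians over 36 libraries ran from 10.7 to 7836 normalized reads, with a median of 59.5, against 165 for the 12395 genes. The median SD between animals within a group was 0.42 on the log2 scale, against 0.27 for the 12395 genes. Lower level and larger spread thus went together with membership, and their part in the result was not tested. Deviations from the group means correlated weakly between the genes over the 36 libraries, with a median Pearson r of 0.11 over pairs, where all pairs of the 12395 genes had 0.01. Libraries share depth and muscle piece across genes, so this is a description.

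The 3 genes with the highest values were the following. ENSOARG00000020013 had 10740, 8134 and 11600 normalized reads at PRE in N6W, 5907, 12560 and 7595 at TR, 6743, 7334 and 4482 at END, and 7639, 6425 and 3769 at END-CC. PRE lay above END and END-CC without overlap, and TR spread across both. ENSOARG00000014779 had 2731, 2125 and 2337 at PRE, 1545, 1658 and 1825 at TR, 1623, 1013 and 1881 at END, and 1343, 1273 and 1516 at END-CC. ENSOARG00000013062 had 3046, 2044 and 3080 at PRE, 2020, 1541 and 1442 at TR, 1322, 1197 and 1192 at END, and 1692, 1244 and 1375 at END-CC. Both had PRE above all later N6W values. ENSOARG00000013062 and ENSOARG00000020013 had changes of -0.70 and -0.28 at TR and -1.11 and -0.73 at END. At the other end, ENSOARG00000020640, ENSOARG00000012776 and ENSOARG00000014086 had medians of 10.7, 10.8 and 10.9, and down to 3, 4 and 1 reads in the library with the fewest.

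Spread between animals differed across the genes. ENSOARG00000008303 was the steadiest, with a within-group SD of 0.17. It had 338, 308 and 247 normalized reads at PRE in N6W, 204, 225 and 214 at TR, 179, 156 and 143 at END, and 132, 176 and 197 at END-CC. PRE was above TR, and TR above END and END-CC, with no overlap. ENSOARG00000013714 and ENSOARG00000013499 followed with SDs of 0.22 and 0.23, and N6W changes of -0.77 and -0.81 at END. ENSOARG00000011811 spread most, with an SD of 0.96. It had 67.4, 174 and 103 at PRE in N6W and 38.7, 79.2 and 62.7 at END-CC, so the groups overlapped although each animal was lower at END-CC. ENSOARG00000001372 and ENSOARG00000004119 had SDs of 0.86 and 0.78.

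The changes of CONTROL and N22W from PRE were not used by the rule except through the bounds on TR and END-CC, and they cross the 2 sets of libraries. In CONTROL the median END minus PRE was -0.80, against -0.53 for the 12395 genes, and the median END-CC minus PRE was -1.02, against -0.55. Relative to the 12395 genes in the same animal these medians were -0.26 and -0.48. In N22W the medians were -0.77 and -0.98, and -0.23 and -0.43 relative to the 12395 genes. The larger part of each value was thus shared with the genes at large.

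Relative to the 12395 genes, a mean change of -0.7 or less was reached at END by 14 of the 69 in CONTROL (8.93% of the 12395 genes) and by 12 in N22W (7.97%). At END-CC it was reached by 21 in CONTROL (9.16%) and by 17 in N22W (6.33%). Without that adjustment the counts were 41 in CONTROL (35.5%) and 41 in N22W (34.9%) at END, and 57 (35.6%) and 53 (30.4%) at END-CC. The rule holds END-CC of CONTROL near that of the treated arms, which is low in N6W by choice. The END-CC counts are therefore not read as a finding. The sign of the relative change was below 0 for 52 genes in CONTROL and 49 in N22W at END. The adjustment sets the median of the 12395 genes to 0 in each animal. Their share below 0 was not counted, so nothing is read from these counts. All 3 relative medians by animal were below 0 in both arms, -0.24 to -0.16 for CONTROL and -0.43 to -0.16 for N22W at END. The size of these changes and the number of genes past the bound thus differed with the scaling, while the medians kept their sign.

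ENSOARG00000007197 and ENSOARG00000014246 had the most negative changes in CONTROL and N22W. ENSOARG00000007197 went from 22.9, 30.1 and 56.5 normalized reads at PRE in CONTROL to 8.72, 6.51 and 9.23 at END and 5.71, 4.91 and 6.06 at END-CC. ENSOARG00000014246 went from 53.7, 37.6 and 35.0 at PRE in N22W to 13.6, 1.28 and 13.6 at END. Neither gene had overlapping groups in these comparisons, and both had few reads at the end. ENSOARG00000023742 was the clearest exception: its mean was higher at END than at PRE in CONTROL and in N22W, although N22W animal 2913 was slightly lower. It had 13.1, 14.1 and 6.14 at PRE and 38.6, 23.9 and 20.4 at END in CONTROL, 11.6, 4.70 and 4.52 and then 10.7, 24.3 and 19.9 in N22W, but 41.4, 31.3 and 37.2 and then 20.2, 13.7 and 30.5 in N6W. Its PRE values in N6W stood above those of the other arms. ENSOARG00000020783 changed by 0.21 at END in CONTROL, by -0.09 in N22W and by -0.95 in N6W.

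**Figure D3:**
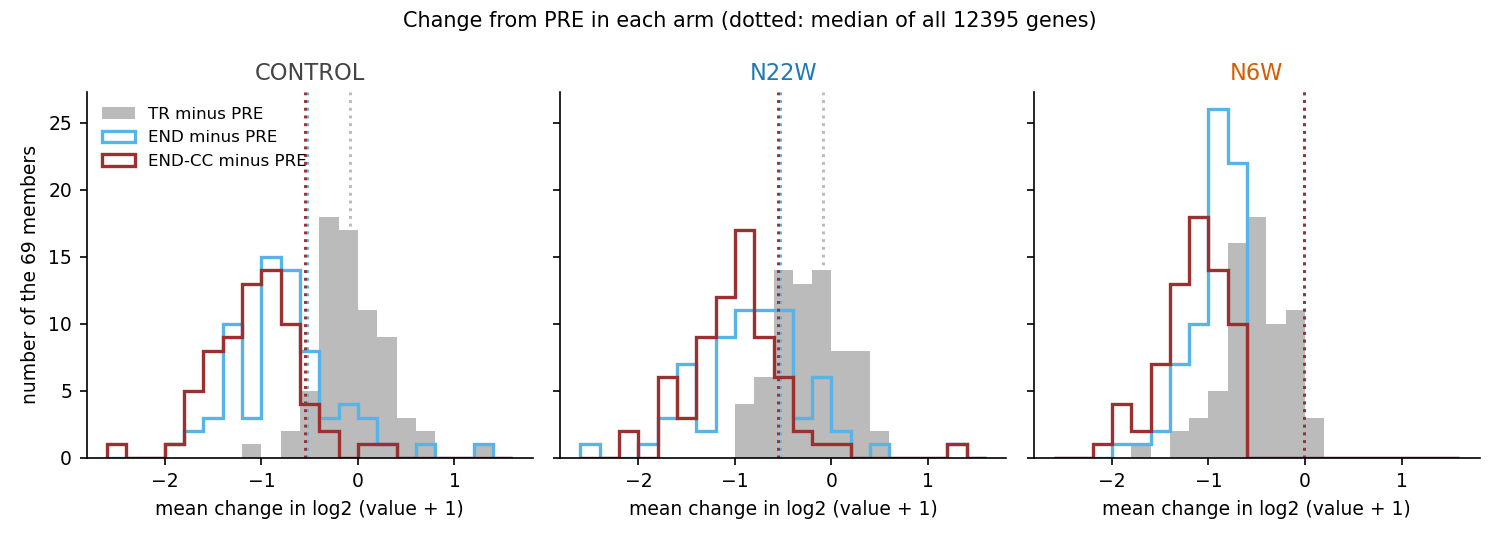
Number of the 69 genes (vertical axis) by mean change in log2(value + 1) from PRE (horizontal axis) in each arm, for TR (filled grey), END (blue line) and END-CC (red line). Dotted lines mark the median of the 12395 genes, which lies at -0.53 for END in CONTROL and N22W and at -0.01 in N6W; the grey TR values lie further left in N6W, with a median of -0.51, than in CONTROL, with -0.06.

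The comparison of the operated with the other muscle at the end asks whether the genes differ between the 2 shoulders of the same animal, and it lies within the 24 libraries scaled together. In CONTROL the median END minus END-CC was 0.31 over the 69 genes, against 0.06 over the 16417 genes tested. Of the 69 genes 52 were above 0, where 54.4% of all genes tested were above 0. By animal the median was 0.27 in 2901, 0.09 in 2902 and 0.42 in 2903. The rule holds END-CC of CONTROL near END-CC of the treated arms, which is low in N6W by choice. The sign of these medians is therefore not read as a finding. The calls and p-values below use the same END-CC libraries. They are not independent of the choice of the genes and are given as a description. limma with Benjamini-Hochberg adjustment called 6 of the 69 genes, 4 higher and 2 lower in the operated muscle, where it called 19.4% of all genes tested, 9.53% higher and 9.87% lower. The share of the 69 genes called was below that background. An unadjusted limma p under 0.05 was found for 19 of the 69 and for 5634 of the 16417 genes tested. The 69 genes also had a larger median SD between animals than the 12395 genes, 0.42 against 0.27. The part of that spread in the share called was not tested.

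ENSOARG00000014802 had 108, 109 and 181 normalized reads at END in CONTROL animals 2901, 2902 and 2903, and 59.9, 77.3 and 80.8 at END-CC, a difference of 0.83 ± 0.20 (SE; limma, Benjamini-Hochberg adjusted p = 0.00699). ENSOARG00000013410 had 22.4, 24.95 and 25.7 at END and 6.66, 7.37 and 12.1 at END-CC, a difference of 1.42 ± 0.35 (limma, adjusted p = 0.00836). ENSOARG00000013073 had 72.3, 80.3 and 97.6 at END and 49.5, 50.3 and 48.5 at END-CC, a difference of 0.73 ± 0.20 (limma, adjusted p = 0.0148). In each of these 3 genes every operated muscle stood above every muscle of the other side. ENSOARG00000004235 had 7.48, 4.34 and 19.78 at END and 19.98, 28.2 and 31.3 at END-CC, a difference of -1.47 ± 0.37 (limma, adjusted p = 0.00974). ENSOARG00000013062 had 799, 844 and 1362 at END and 1202, 1158 and 2148 at END-CC, a difference of -0.57 ± 0.17 (limma, adjusted p = 0.0211). Both were lower in the operated muscle of all 3 animals, and only ENSOARG00000004235 had groups that did not overlap. The sixth gene called, ENSOARG00000020714, is given after its values were seen and had a difference of 0.73 ± 0.25 (limma, adjusted p = 0.0429). In N22W the differences of these 6 genes were 0.36, 0.53, -0.07, -0.10, -0.35 and 0.52 in the order given here, and whether they differ from CONTROL was not tested.

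These calls depended on the animals. Without CONTROL animal 2901 none (0) of the 69 genes was called, without 2902 it was 1 and without 2903 it was 2. Over 13 other settings the adjusted p of ENSOARG00000014802 ran from 0.00209 to 0.103, that of ENSOARG00000013410 from 0.00676 to 0.0837, that of ENSOARG00000004235 from 0.00802 to 0.163, that of ENSOARG00000013073 from 0.00602 to 0.137, that of ENSOARG00000013062 from 0.00629 to 0.125 and that of ENSOARG00000020714 from 0.0328 to 0.27. Each lost its call under at least 2 of them.

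In N22W, END minus END-CC had a median of 0.16 over the 69 genes, with 49 above 0, where 55% of all genes tested were above 0. The rule used END-CC of N22W in its bound against CONTROL, so the sign of this median is not read as a finding either. The calls and p-values of this comparison are likewise not independent of the choice of the genes. limma with Benjamini-Hochberg adjustment called 0 of the 69, where it called 1.6% of all genes. An unadjusted p under 0.05 was found for 10 of them and for 19.7% of all genes. On the recovered reads edgeR called 0 of the 69 and DESeq2 1. ENSOARG00000017649 had 798, 773 and 636 normalized reads at END in N22W and 420, 403 and 440 at END-CC, a difference of 0.80 ± 0.25 (limma, Benjamini-Hochberg adjusted p = 0.0931). All 3 operated muscles stood above all 3 of the other side. In the fit of the compared libraries alone its adjusted p was 0.02, and with DESeq2 it was 0.0483. ENSOARG00000012365 had 32.1, 20.5 and 32.0 at END and 44.9, 38.6 and 44.4 at END-CC, a difference of -0.61 ± 0.20 (limma, adjusted p = 0.0993), again without overlap. In N6W, where END and END-CC both chose the genes, the median END minus END-CC was 0.14.

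**Figure D4:**
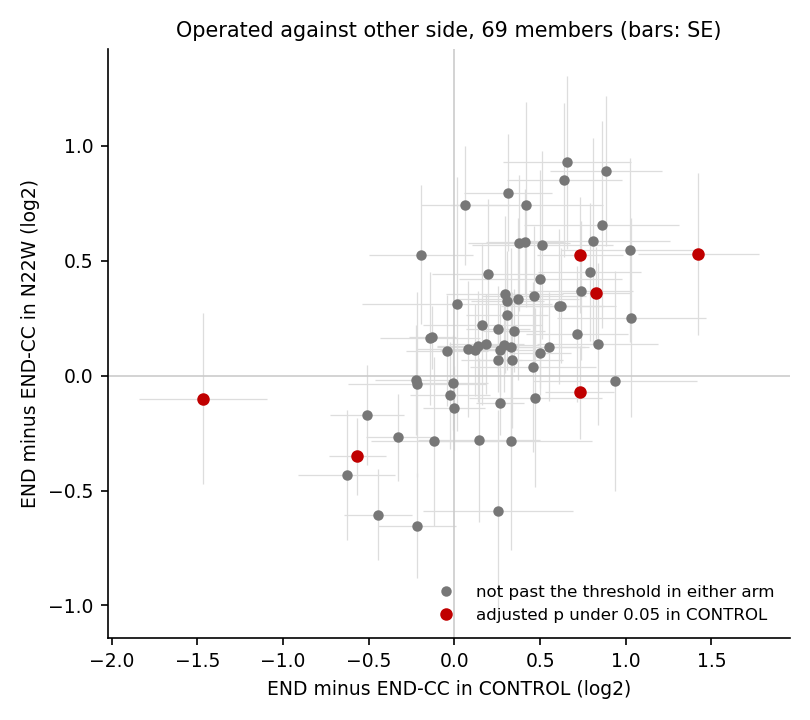
Difference between the operated and the other muscle at the end (END minus END-CC, log2 scale) of the 69 genes in CONTROL (horizontal axis) and N22W (vertical axis), with bars of 1 SE. The 6 red points were called in CONTROL, and none (0) of the 69 was called in N22W; the lowest point on the horizontal axis is ENSOARG00000004235 at -1.47.

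Nandrolone over 22 weeks was asked by comparing N22W with CONTROL. From PRE to END the change of N22W minus that of CONTROL had a median of -0.05 over the 69 genes, with a median SE of 0.42. limma with Benjamini-Hochberg adjustment called 0 of the 69, where it called 0.122% of all genes, and edgeR and DESeq2 called 0 of the 69 as well. An unadjusted p under 0.05 was found for 5 of them and for 6.65% of all genes. Both changes cross the sets of libraries alike, and their PRE libraries entered the bound on release. ENSOARG00000013284 went from 133, 149 and 114 normalized reads at PRE to 24.3, 44.8 and 36.7 at END in N22W, and from 109, 100 and 120 to 38.6, 65.1 and 77.2 in CONTROL, a difference of changes of -1.0 ± 0.32 (limma, Benjamini-Hochberg adjusted p = 0.468). ENSOARG00000013410 changed by -0.73 in N22W and by 0.80 in CONTROL, a difference of -1.53 ± 0.50 (limma, adjusted p = 0.468). At this SE a difference of the size of the median could not be detected in a single gene.

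From PRE to TR the difference between the arms had a median of -0.14, and without N22W animal 2913 it was 0.04. limma called 0 of the 69 after Benjamini-Hochberg adjustment, with 6 at an unadjusted p under 0.05, and edgeR and DESeq2 on the recovered reads also called 0 of the 69. Of all genes limma called 0%, with 1090 (6.64%) at an unadjusted p under 0.05, edgeR 11 and DESeq2 27. ENSOARG00000000078 went from 215, 95.2 and 137 normalized reads at PRE to 45.2, 65.0 and 126 at TR in N22W, and from 80.8, 55.2 and 95.7 to 79.5, 155 and 140 in CONTROL. Its difference of changes was -1.62 ± 0.50 (limma, Benjamini-Hochberg adjusted p = 0.471), and animal 2913 had the highest PRE and the lowest TR value. ENSOARG00000010116 went from 376, 447 and 360 to 215, 179 and 162 in CONTROL, and from 315, 325 and 173 to 320, 311 and 281 in N22W, a difference of 1.30 ± 0.42 (limma, adjusted p = 0.49). Its CONTROL groups did not overlap, while in N22W only animal 2915 moved by much.

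At END the level of N22W minus that of CONTROL had a median of -0.04 over the 69 genes, with a median SE of 0.33. limma called 0 of the 69 after Benjamini-Hochberg adjustment, with 2 at an unadjusted p under 0.05, and edgeR and DESeq2 called 0 of the 69. Of all genes limma called 0%, with 824 (5.02%) at an unadjusted p under 0.05, edgeR 0 and DESeq2 54. ENSOARG00000013712 had 30.1, 41.0 and 29.3 normalized reads in N22W and 16.2, 16.3 and 25.7 in CONTROL, a difference of 0.77 ± 0.31 (limma, Benjamini-Hochberg adjusted p = 0.966). ENSOARG00000013284 had 24.3, 44.8 and 36.7 in N22W and 38.6, 65.1 and 77.2 in CONTROL, a difference of -0.74 ± 0.31 (limma, adjusted p = 0.988). The N22W values of the first lay above those of CONTROL without overlap, and those of the second overlapped.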

How the data were processed

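The labels' protocols describe stranded total RNA libraries after ribosomal RNA depletion with human probes, from separate animals. The submitters' processing notes list the assembly Oar_v3.1, R 3.0.2 and STAR 2.3.0e with no roles. The counter and annotation, not given in the sources used here, are unknown. The deposited signal per gene consists of whole multiples of a step of 0.51151 to 1.61526 per library (100.0% within 0.1 of whole up to 100 reads), read here as reads over a size factor, and the authors' scaling was kept. Pairs of libraries within a group had a chi-square per gene of 16.29 to 168.11, so none was a copy.

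limma 3.58.1 (R 4.3.3, prior trend) was fitted on log2(value + 1) to 16417 genes whose median was 0.5 or more over all 36 libraries, with a mean per arm and time point and the animal as a block; END levels used 9 libraries without a block. Changes on the log2(value + 1) scale understate those of genes with few reads. P-values are two-sided and Benjamini-Hochberg adjusted over all genes tested, with a threshold of 0.05. Animals pair the libraries by design: same-animal deviations had a mean r of 0.24, over 0.1 in 50 of 54 pairs. The script was tested on simulated data.

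The genes and lists were chosen with earlier results of these data known. Named genes were the 10 with the lowest N6W changes, the 3 highest and 3 lowest in level, the 3 with the largest and 3 with the smallest spread, the 2 with the most and 2 with the least negative changes outside N6W, those nearest each bound, and up to 5 called per test, or the 2 with the smallest p. Marker lists were not used, since identifiers carry no names. Alternatives were other pseudocounts, filters, scaling, edgeR 4.0.16 and DESeq2 1.42.0 on recovered reads, fewer libraries, no block, and leaving out each animal.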

Additional observations from a re-analysis of the deposited data

Results flagged for a closer look

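Only the named genes were searched for opposite moves between arms. For 2 of them, every N22W animal moved 1 way from PRE to TR and every N6W animal the other. The differences were not tested, N6W PRE chose the genes, and the PRE and TR libraries of N22W and N6W belong to the sets scaled apart, although each change lies within 1 set. ENSOARG00000001606 changed by 0.52 in N22W, from 114, 94.0 and 88.2 normalized reads to 143, 134 and 146, and by -1.18 in N6W, from 179, 261 and 113 to 82.4, 62.4 and 86.4, a difference of 1.70 on the log2 scale. ENSOARG00000013025 changed by 0.19 in N22W and by -1.69 in N6W, a difference of 1.88. Genes outside the search could move in opposite directions too. ENSOARG00000001510 was higher at TR than at PRE in every CONTROL animal and lower in every N22W and N6W animal. Its mean changes were 0.33, -0.46 and -0.55 in CONTROL, N22W and N6W.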

How the results depend on the processing

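No called result changed direction under any alternative run. Of the medians over the 69 genes for N22W against CONTROL, the change to END went from -0.05 to 0.001 without CONTROL animal 2903 and 0.08 without N22W animal 2913, the change to TR from -0.14 to 0.04 without 2913, and the END level from -0.04 to 0.07 without 2903. Of the values below, those for the changes from PRE come from alternatives chosen after seeing the data, as does the fit of the 24 libraries scaled together. The number of genes that met the rule went from 69 to 236 with a limit of -0.5, to 18 with -1, and to 60 to 207 leaving out 1 animal. Median END minus PRE in CONTROL went from -0.80 to -0.74 with a pseudocount of 4, to -0.28 with TMM scaling, to -0.26 relative to the genes that pass the level bounds, and to between -0.855 and -0.756 without 1 animal. Under TMM scaling and relative to those genes, END-CC minus PRE was -0.45 and -0.48 in CONTROL and -0.40 and -0.43 in N22W, and END minus PRE in N22W was -0.25 and -0.23. For the side difference in CONTROL, 11 of the 69 were called with only the compared libraries, 2 without the replicate block and 0 to 2 without 1 animal, where 6 were called with all libraries and the block. The share of all genes called with only the compared libraries is not given here, so nothing is read from the 11. Over all genes 3184 became 1596 without the block and 752 to 1314 without 1 animal. In N22W, DESeq2 called 1 of the 69 and the fit of the compared libraries 2; over all genes 263 became 117 without a filter, 714 with DESeq2, 791 with the compared libraries, 38 without the block, 74 with the 24 libraries and 0 to 41 without 1 animal. For the change to END, 20 genes became 52 with DESeq2, 0 without the block and 2 to 8 without 1 animal. For the change to TR, 0 became 15 without a filter, 11 with edgeR, 27 with DESeq2 and 0 to 4 without 1 animal, and for the END level 0 became 2 without a filter, 54 with DESeq2 and 7 with only the compared libraries. The cause of these differences was not tested, beyond the fewer samples in some fits. Of the named genes' values, 23 lost and 2 gained a call. All 23 losses fell on the 6 genes called for the side difference in CONTROL, each run under 13 other settings. The remaining 287 values include untested N6W changes from PRE, which had no call to lose. The block changed no other count of calls among the 69. Depth limits the genes at the lower bound of 10 normalized reads, where single libraries held as few as 1 read.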
